A study of Mus musculus with 6 samples.

Results

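The genes described here encode enzymes of fatty acid oxidation and ketone body metabolism, with the fasting signals that accompany them. They form a list of 31 genes, of which 30 were measured on the arrays among 19938 genes tested, and Acsl1 was not analysed here. A member was taken as the array row annotated with that symbol alone, and for Hadhb, the only member with 2 such rows, as the row with the highest mean over the 6 arrays. Only Bdh1 on the list acts in ketone body metabolism itself, so the values bear mainly on fatty acid oxidation.

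Total RNA of epithelial cells prepared from the mouse jejunum was hybridised to Affymetrix gene arrays. The 3 control animals carried R26-M2rtTA, an activator of transcription that needs doxycycline and is expressed from the Rosa26 locus, which is active in many cell types. The 3 transgenic animals carried the same activator together with a TRE-driven Musashi transgene, written TRE-Msi1 in the series text and TRE-MSI2 in the genotype label. Both groups drank doxycycline for 24 h, so the comparison asks what differed after that time of transgene induction, and no array shows an animal without doxycycline. The labels do not state age, sex or strain.

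Fatty acids are burned in mitochondria after activation to acyl-CoA and transfer on carnitine. Each turn of the cycle uses an acyl-CoA dehydrogenase that passes electrons to an electron transfer flavoprotein, then a hydratase, a dehydrogenase and a thiolase, while peroxisomes run a parallel pathway for very long and dicarboxylic chains. Enterocytes, the absorptive cells of the villus, are known to oxidise part of the fat they absorb, and many genes of the pathway are known targets of PPAR-alpha, a nuclear receptor that binds fatty acids and pairs with RXR.

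All values are log2 signals, so a difference of 1 is a doubling. Differences are transgenic minus control with the standard error (SE) from limma. The p-values are limma's, adjusted by the Benjamini-Hochberg method across the 19938 genes, and genes with an adjusted p under 0.05 are said to have passed. The words rose and fell are used only of genes that passed, and where a call was lost with 1 array left out, the highest adjusted p among these cases follows as "up to". The induced gene itself separated the groups: Msi1 was 6.86 to 7.03 on the control arrays and 12.51 to 12.68 on the transgenic arrays (difference 5.66, SE 0.0894, adjusted p = 1.34e-05). Msi2 was 8.59 to 8.71 on the controls and 8.57, 8.08 and 8.01 on transgenic replicates 1, 2 and 3 (difference -0.42, adjusted p = 0.168, and -0.59 with 0.0011 without transgenic replicate 1), so no transgenic array had more Msi2 signal than the controls.

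Transgenic replicate 1 differed from all other arrays, with correlations across genes of 0.922 to 0.951 with them against 0.968 to 0.996 among the other 5. Its enterocyte signal was low: the summed signal of 15 enterocyte markers, on the log2 scale, was 14.34 on that array, 16.09 and 16.05 on transgenic replicates 2 and 3 and 16.22 to 16.32 on the controls, while 0 of the 15 markers passed in limma (3 at an unadjusted p under 0.05, and 6 lower without that array). The summed signal of 6 pan-epithelial markers was 14.46 to 14.49 on controls and 14.51 to 14.52 on transgenic arrays. Of the 6 markers 1 rose, Cdh1 (0.34; its call was lost unless the array left out was transgenic replicate 1, up to 0.161). Without transgenic replicate 1 there were 1 higher and 0 lower. On that array Krt18 and Cldn7 differed from the control mean by 1.30 and -0.49, which the sum does not show. T cell markers, as lymphocytes lie within the epithelium, were summed at 8.43, 10.99 and 11.03 on transgenic replicates 1, 2 and 3 and at 11.33 to 11.76 on the controls, and 1 of 6 passed, the dim Cd8b1 (-0.55), which lost its call when a control was left out (up to 0.0686); 4 of 6 were lower without transgenic replicate 1. Smooth muscle, endothelial and adipocyte markers, which mark tissues next to the epithelium, had 5 of 6, 5 of 6 and 3 of 5 genes in the dimmest 40% of all genes, and 0 passed in limma, with 0 at an unadjusted p under 0.05. Fibroblast markers were less dim, with 2 of 6 in the dimmest 40%, and 0 passed in limma. Among them Dcn was lower on every transgenic array (-0.46, adjusted p = 0.184) and passed as lower without transgenic replicate 1 (-0.59, adjusted p = 0.0209). Of 9 crypt markers 2 fell, Olfm4 (-3.37) and Ascl2 (-1.03), and 6 were lower without transgenic replicate 1, with the summed signal at 12.93 to 13.16 on controls and 13.17, 12.13 and 12.09 on the transgenic arrays. Ascl2 lost its call on leaving out control replicate 2 or 3 (up to 0.0733). On transgenic replicate 1 Olfm4, Ascl2 and Axin2 differed from the control mean by -3.08, -0.90 and -0.42. The other crypt markers lay above it there, by 0.30 (Top2a) to 1.74 (Cdk1), so the sum hides opposite directions. Goblet cell markers were summed at 14.42 to 14.48 on controls and at 13.97, 14.11 and 14.11 on the transgenic arrays. This sum too hides opposite directions on transgenic replicate 1. Spink4 and Agr2 differed there from the control mean by 1.07 and 0.14, and Muc2, Tff3 and Clca1 by -0.32, -1.37 and -1.99. Of 5 goblet markers 1 fell, Muc2 (-0.33; its call was lost unless the array left out was transgenic replicate 1, up to 0.163), and 3 were lower without transgenic replicate 1. Of 6 macrophage markers 1 rose, Cd14 (1.06; its call was lost on leaving out control replicate 1 or 2, up to 0.0652), and without transgenic replicate 1 there were 2 higher and 1 lower. Paneth cell markers were summed at 13.90 to 14.07 on controls and at 14.55, 13.04 and 12.97 on the transgenic arrays, with 0 of 5 past the limma threshold, 0 at an unadjusted p under 0.05 and 5 lower without transgenic replicate 1. Every result on members is therefore given also from limma on the 5 arrays other than transgenic replicate 1, which is called the 5-array fit. That array was left out after its values were seen, and its distance from the other transgenic arrays no longer enters the error. The p-values of the 5-array fit may therefore overstate certainty, and they are no replication of the fit to 6 arrays. The part of the differing enterocyte, T cell, fibroblast, crypt, goblet, Paneth and macrophage signals in the differences below was not tested. In such bulk preparations fewer cells of a type and less RNA per cell cannot be told apart.

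Of the 30 members 15 passed, 5 higher and 10 lower in the transgenic epithelium (50.0%, against 11.9% of all genes). The lower share was 33.3% of members against 5.84% of all genes, and the higher share 16.7% against 6.04%. The members were brighter than most genes, with 21 of 30 means in the upper 20% of genes and 2 in the dimmest 40%. The shares of all genes include dim ones, and no share at matched signal was computed. The list was also chosen with earlier results of these data known. The genes that rose were the long-chain and branched-chain dehydrogenases Acadl and Acadsb, the enoyl-CoA isomerase Eci2 and the thioesterases Acot1 and Acot2. Those that fell were the dehydrogenases Acadvl, Acadm and Acads, the mitochondrial enzymes Hadhb, Eci1 and Decr1, the electron carrier subunit Etfa, the peroxisomal enzymes Ehhadh and Acaa1a, and Bdh1. Of the 15, 13 differed by at least 1.5-fold, the others being Acadvl and Hadhb (8.92% of all genes passed with such a fold); in the 5-array fit 16 did, against 14.0% of all genes. In the 5-array fit 21 members passed, 9 higher and 12 lower (70.0%, against 28.6% of all genes, 14.0% higher and 14.5% lower). All 15 members called with 6 arrays were also called on these 5 of the same arrays, with the same direction. A further 6 were added: Pex11a, Pdk4, Angptl4 and Vnn1 as higher, Hadh and Acaa1b as lower.

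The median difference over the 30 members was -0.35, against -0.04 over all genes, and -0.15 against -0.03 in the 5-array fit. The groups did not overlap for 23 members, 6 higher and 17 lower (76.7%, against 34.2% of all genes, 16.0% higher and 18.2% lower). In the 5-array fit this held for 27 members (90.0%, against 48.4% of all genes). Transgenic replicates 2 and 3 lay close together, with the largest gap between them at 0.42. Transgenic replicate 1 was the lowest of the 3 for 21 members, and over 1 log2 unit below the mean of the other transgenic arrays for 8, where 5.34% of all genes were. For a single gene, 0.1 is the smallest two-sided p that an exact permutation test can give with 3 arrays in each group.

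**Figure D1:**
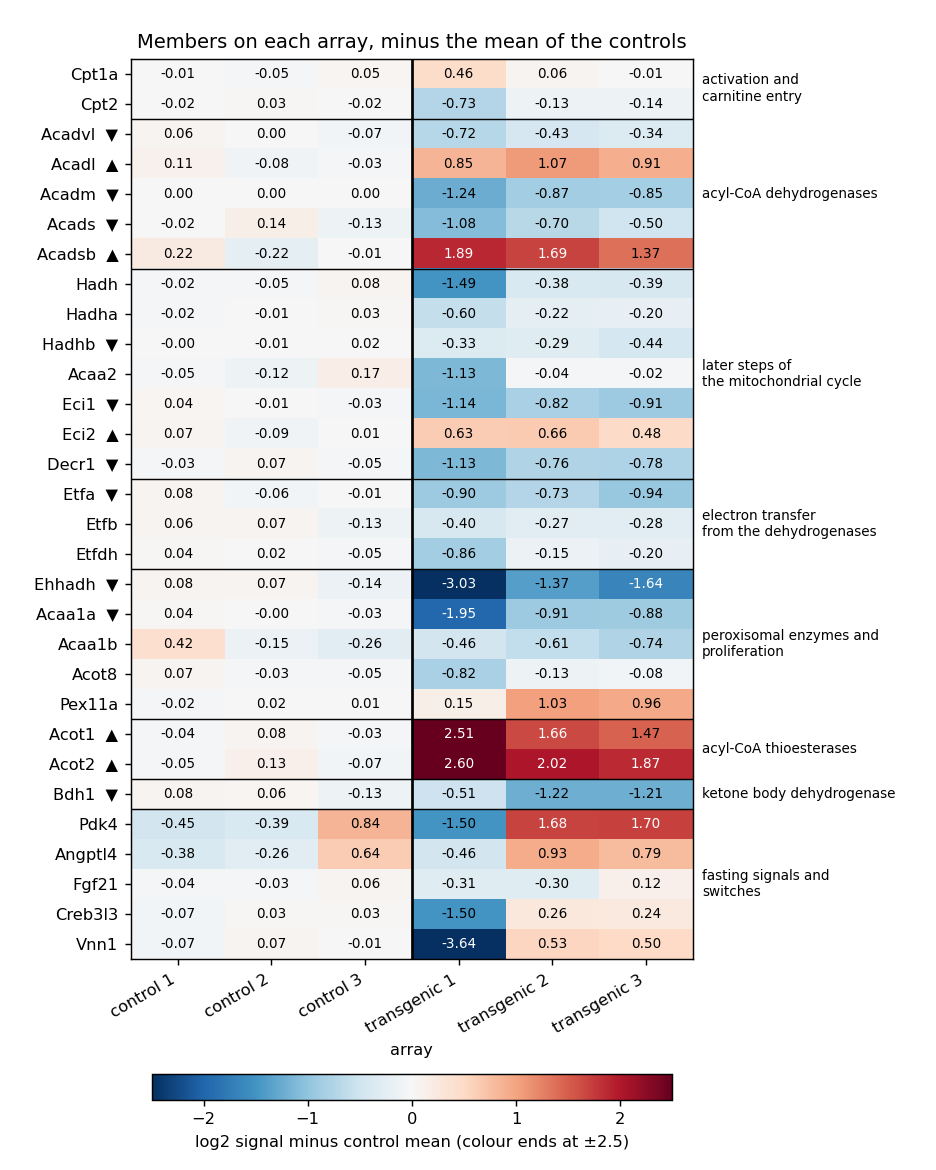
Log2 signal of each of the 30 members (rows, grouped by role) on each of the 6 arrays (columns), minus the mean of the 3 controls. Colours run from blue (lower) to red (higher) and end at 2.5 in either direction, numbers give the value, and triangles mark members that passed as higher or lower with all 6 arrays. Acot1, Acot2, Acadsb and Acadl are red on every transgenic array, Ehhadh, Acaa1a and Acadm blue on every one, and at the bottom Pdk4, Angptl4, Creb3l3 and Vnn1 are blue on transgenic replicate 1 and red on the others.

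Neither gene of mitochondrial entry passed. Cpt1a makes acylcarnitines at the outer membrane, the step that controls the pathway. Its signal was 9.99, 9.95 and 10.05 on control replicates 1 to 3 and 10.46, 10.06 and 9.99 on transgenic replicates 1 to 3. Transgenic replicate 1 was the highest of the 6 arrays and the groups overlapped (difference 0.17, SE 0.138, adjusted p = 0.528; 0.03 in the 5-array fit). Cpt2, which turns acylcarnitines back into acyl-CoA inside, was 10.51 to 10.56 on the controls and 9.80, 10.40 and 10.39 on the transgenic arrays. All 3 transgenic arrays lay below the controls, most of the distance coming from replicate 1, and Cpt2 did not pass (difference -0.33, SE 0.174, adjusted p = 0.325; -0.13 in the 5-array fit).

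The acyl-CoA dehydrogenases, which take the first oxidation step and differ in the chain they accept, divided in direction. All 5 members passed, 2 higher and 3 lower, and the groups did not overlap for any of them. Acadl, for long chains, was 10.18, 9.99 and 10.04 on the controls and 10.92, 11.14 and 10.98 on the transgenic arrays. It rose 1.92-fold (difference 0.94, SE 0.0982, adjusted p = 0.00409; 0.99 in the 5-array fit), with replicate 1 in step with the other transgenic arrays. Acadsb, which acts on short branched chains from isoleucine, was 6.95, 6.51 and 6.72 on the controls and 8.62, 8.42 and 8.10 on the transgenic arrays. It rose 3.15-fold (difference 1.65, SE 0.174, adjusted p = 0.00427; 1.53 in the 5-array fit), and the lowest transgenic array lay more than 1 log2 unit above the highest control.

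The other 3 dehydrogenases fell. Acadm, for medium chains, was 11.23 on each control and 9.99, 10.36 and 10.38 on the transgenic arrays, 1.99-fold lower (difference -0.99, SE 0.124, adjusted p = 0.00671; -0.86 in the 5-array fit). The controls were almost identical here, and every transgenic array lay well below them. Acads, for short chains, was 9.30, 9.46 and 9.19 on the controls and 8.24, 8.62 and 8.82 on the transgenic arrays, 1.70-fold lower (difference -0.76, SE 0.166, adjusted p = 0.0358; -0.60 in the 5-array fit). Acadvl, for very long chains and bound to the inner membrane, was 8.78 to 8.91 on the controls and 8.13, 8.42 and 8.51 on the transgenic arrays. Its difference was -0.49 (SE 0.12, adjusted p = 0.0498; -0.38 in the 5-array fit), close to the threshold. The calls of Acadl, Acadm and Acadsb were kept with each of the 6 arrays left out in turn, that of Acads was lost when a control or transgenic replicate 2 was left out (up to 0.147) and that of Acadvl unless the array left out was transgenic replicate 1 (up to 0.194).

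Of the 7 genes for later steps of the mitochondrial cycle 3 fell and 1 rose, with the isomerases on opposite sides. Eci1, the mitochondrial enoyl-CoA isomerase that prepares unsaturated chains, was 9.25, 9.20 and 9.18 on the controls and 8.07, 8.39 and 8.30 on the transgenic arrays, 1.94-fold lower (difference -0.96, SE 0.104, adjusted p = 0.00472; -0.87 in the 5-array fit). Eci2, a second isomerase found in mitochondria and peroxisomes, was 8.55, 8.39 and 8.49 on the controls and 9.11, 9.14 and 8.96 on the transgenic arrays. It rose 1.51-fold (difference 0.59, SE 0.0909, adjusted p = 0.0125; 0.57 in the 5-array fit). Neither gene had overlapping groups, and both kept their direction with any array left out, although Eci2 lost its call when a control or transgenic replicate 2 was left out (up to 0.0656).

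Decr1, the dienoyl-CoA reductase also needed for unsaturated chains, was 9.94, 10.04 and 9.92 on the controls and 8.84, 9.21 and 9.19 on the transgenic arrays. It fell 1.85-fold (difference -0.89, SE 0.122, adjusted p = 0.00879; -0.77 in the 5-array fit), and its call was lost on leaving out control replicate 1 or 2 (up to 0.0533). Hadhb, the thiolase subunit of the trifunctional protein, was 10.37, 10.36 and 10.39 on the controls and 10.04, 10.08 and 9.93 on the transgenic arrays, a small and even fall (difference -0.36, SE 0.0774, adjusted p = 0.035; -0.37 in the 5-array fit). Its second row gave -0.34, and its call was lost unless the array left out was transgenic replicate 1 (up to 0.15). Hadha, the other subunit, was 11.24 to 11.29 on the controls and 10.66, 11.04 and 11.06 on the transgenic arrays and did not pass (difference -0.34, SE 0.127, adjusted p = 0.162; -0.21 in the 5-array fit). Both subunits were thus lower on every transgenic array, and they differed in how far replicate 1 lay from the others.

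Hadh, the dehydrogenase for medium and short chains, and Acaa2, the mitochondrial thiolase, differed most from replicate 1 to the other transgenic arrays in this group. Hadh was 12.36 to 12.49 on the controls and 10.92, 12.03 and 12.02 on the transgenic arrays (difference -0.76, SE 0.305, adjusted p = 0.191), and it fell in the 5-array fit (-0.39, adjusted p = 0.00864). Acaa2 was 11.50 to 11.79 on the controls and 10.49, 11.58 and 11.60 on the transgenic arrays (difference -0.39, SE 0.311, adjusted p = 0.531; -0.02 in the 5-array fit). For Acaa2 the second and the third transgenic array lay within the control range.

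Electrons from the dehydrogenases pass to the flavoprotein of Etfa and Etfb and then to its oxidoreductase Etfdh. Etfa was 10.58, 10.44 and 10.49 on the controls and 9.60, 9.77 and 9.56 on the transgenic arrays, so replicate 1 lay between the others. It fell 1.81-fold (difference -0.86, SE 0.0925, adjusted p = 0.00452; -0.84 in the 5-array fit) and passed whichever array was left out. Its partner Etfb was 10.74 to 10.94 on the controls and 10.47, 10.60 and 10.59 on the transgenic arrays, a smaller difference that did not pass (-0.32, SE 0.0925, adjusted p = 0.0853; -0.27 in the 5-array fit). Etfdh was 10.27 to 10.36 on the controls and 9.46, 10.17 and 10.12 on the transgenic arrays and did not pass (-0.41, SE 0.198, adjusted p = 0.281; -0.18 in the 5-array fit). None of the 3 genes had overlapping groups, and all lay lower on the transgenic side.

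Of the 5 genes of the peroxisomal group 2 fell, both enzymes. Ehhadh, the bifunctional enzyme that hydrates and then oxidises the chain, was 10.32, 10.31 and 10.10 on the controls and 7.21, 8.87 and 8.60 on the transgenic arrays. This was the farthest fall among the members, 4.05-fold with 6 arrays (difference -2.02, SE 0.424, adjusted p = 0.0322) and 2.84-fold in the 5-array fit (-1.51, SE 0.114, adjusted p = 4.91e-05). Acaa1a, a peroxisomal thiolase, was 8.74, 8.70 and 8.67 on the controls and 6.75, 7.79 and 7.82 on the transgenic arrays, 2.39-fold lower (difference -1.25, SE 0.291, adjusted p = 0.0435; -0.90 in the 5-array fit). For both genes replicate 1 lay more than 1 log2 unit below the other transgenic arrays, which were themselves well below every control. The call of Ehhadh was lost when a control or transgenic replicate 3 was left out (up to 0.132), and that of Acaa1a unless the array left out was transgenic replicate 1 (up to 0.156).

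Acaa1b, a close copy of Acaa1a whose signal may not be separable from it on such arrays, was dim, at 6.19, 5.62 and 5.51 on the controls and 5.31, 5.16 and 5.03 on the transgenic arrays. It did not pass with 6 arrays (difference -0.61, SE 0.194, adjusted p = 0.108) and was lower in the 5-array fit (-0.68, adjusted p = 0.0247). Acot8, a peroxisomal thioesterase, was 8.89 to 9.01 on the controls and 8.12, 8.81 and 8.86 on the transgenic arrays and did not pass (-0.34, SE 0.206, adjusted p = 0.392; -0.10 in the 5-array fit). Pex11a, which promotes peroxisome division, was 9.66, 9.70 and 9.69 on the controls and 9.83, 10.71 and 10.64 on the transgenic arrays. It lay above every control on every transgenic array, did not pass with 6 arrays (0.71, SE 0.239, adjusted p = 0.123) and rose 1.99-fold in the 5-array fit (0.99, SE 0.0805, adjusted p = 6.67e-05).

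The thioesterases, which split acyl-CoA into free fatty acid and CoA, both rose, and with 6 arrays farther than any other member. Acot2, of the mitochondrial matrix, was 8.64, 8.82 and 8.62 on the controls and 11.29, 10.71 and 10.56 on the transgenic arrays, 4.47-fold higher (difference 2.16, SE 0.199, adjusted p = 0.00303; 1.94 in the 5-array fit). Acot1, its cytosolic relative, was 5.49, 5.61 and 5.50 on the controls and 8.04, 7.19 and 7.00 on the transgenic arrays, 3.67-fold higher (difference 1.88, SE 0.269, adjusted p = 0.01; 1.56 in the 5-array fit). The mean of its controls stood at percentile 28.9 of all genes' control means, a low signal whose distance from background was not measured, so the fold of Acot1 may be compressed. Replicate 1 was the highest array for both, unlike most members, and every transgenic array lay more than 1 log2 unit above every control. Acot2 passed whichever array was left out, and Acot1 lost its call when a control was left out (up to 0.0582). The coding sequences of these genes are close copies, so their signals may not be fully separate.

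Acot1 and Acot2 are neighbours on chromosome 12 in the RefSeq table, followed by Acot4, Acot3, Acot5 and Acot6, which were on the list of other thioesterases. On that list 2 of 13 passed, both higher, where 11.9% of all genes passed, 6.04% as higher. In the 5-array fit 4 were higher and 3 lower, where 14.0% and 14.5% of all genes were. Of the neighbours, Acot6 rose (6.78, 6.46 and 6.38 on the controls, 7.98, 7.74 and 7.48 on the transgenic arrays; difference 1.19, adjusted p = 0.00939). Acot5 rose as well (4.25, 4.55 and 4.52 against 6.22, 5.41 and 5.16; difference 1.16, adjusted p = 0.0473), from a signal in the dimmest 40% of genes. Acot4, a peroxisomal enzyme, lay higher on every transgenic array and did not pass with 6 arrays (0.40, adjusted p = 0.0877) but did in the 5-array fit (0.47, adjusted p = 0.0121). Acot3 overlapped between groups (5.07 to 5.42 against 4.99 to 5.17; difference -0.13, adjusted p = 0.578). Acot6 lost its call without control replicate 2 (adjusted p = 0.0555), and Acot5 when a control or transgenic replicate 2 was left out (up to 0.178). Outside the cluster, the acetyl-CoA hydrolase gene Acot12 did not pass with 6 arrays (-2.25, adjusted p = 0.129) and fell in the 5-array fit (-1.31, adjusted p = 1.31e-04). The cluster's genes are related in sequence, and how far their array rows share signal was not tested.

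**Figure D2:**
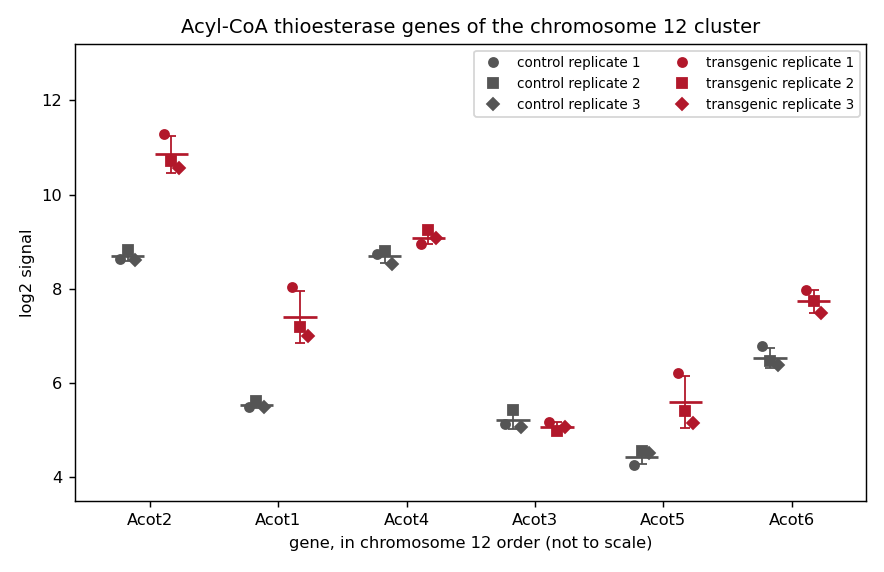
Log2 signal (vertical axis) of the 6 thioesterase genes of the chromosome 12 cluster in their order along the chromosome, with 1 symbol per array, grey for controls and red for transgenic arrays; lines are group means and bars SDs (n = 3). The groups are apart for Acot2, Acot1, Acot5, Acot6 and, by less, Acot4, and overlap for Acot3; levels of different genes are not comparable on arrays.

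Since Acot1 and Acot2 moved together, the 250 bases before each start are shown, from RefSeq on build GRCm38.p6, both on the plus strand, with Acot1 at chr12:84009252-84009501 and Acot2 at chr12:83987611-83987860. Capitals mark the letters CCAAT on either strand, a box common in promoters that was picked after the sequences were seen.
Acot1: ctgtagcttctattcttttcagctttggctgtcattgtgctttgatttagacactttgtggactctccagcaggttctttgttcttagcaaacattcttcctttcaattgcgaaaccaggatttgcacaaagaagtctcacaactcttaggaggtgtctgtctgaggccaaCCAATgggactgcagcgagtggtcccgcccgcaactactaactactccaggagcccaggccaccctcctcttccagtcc
Acot2: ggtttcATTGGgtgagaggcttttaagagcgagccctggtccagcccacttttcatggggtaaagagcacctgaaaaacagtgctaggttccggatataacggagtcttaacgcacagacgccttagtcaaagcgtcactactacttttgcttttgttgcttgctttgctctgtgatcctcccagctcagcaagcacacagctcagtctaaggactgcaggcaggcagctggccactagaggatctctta
The match lies 79 bases before the start of Acot1 and 244 bases before that of Acot2, on opposite strands, and 33.8% of all 32851 RefSeq promoters of this length hold the letters. The longest run of letters found in both windows was 9 bases.

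The direct repeat to which PPAR-RXR pairs bind was also searched in these windows on both strands. Its full form is the hexamer AGGTCA, any base, and AGGTCA again. The first looser form allows any base at the fourth position of both hexamers, and the second keeps AGGTCA, any base and AGG. Both looser forms include the full one. Promoters were matched for 26 of the 30 members, with 28 starts. Those on chromosome 18, where Acaa2 lies, were not searched. The repeat was in 0 of the 28 in any of the 3 forms, and in 0.0335%, 0.338% and 0.56% of the 32851 promoters searched. This says only that the letters are not in these windows.

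Bdh1, which interconverts acetoacetate and beta-hydroxybutyrate, was 9.65, 9.63 and 9.44 on the controls and 9.06, 8.35 and 8.36 on the transgenic arrays. It fell 1.98-fold (difference -0.98, SE 0.209, adjusted p = 0.0332), and in the 5-array fit 2.33-fold (-1.22, SE 0.0935, adjusted p = 5.24e-05). Here replicate 1 was the transgenic array nearest to the controls. The call was lost unless the array left out was transgenic replicate 1 (up to 0.137).

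Of the fasting signals and switches 0 of 5 passed in limma with 6 arrays, with 0 at an unadjusted p under 0.05, and 3 were higher in the 5-array fit. Pdk4, the kinase that turns off pyruvate dehydrogenase so that fat is burned in place of sugar, was 9.10, 9.16 and 10.39 on the controls and 8.05, 11.23 and 11.25 on the transgenic arrays. Transgenic replicate 1 was the lowest of all 6 arrays and the other transgenic arrays the highest (difference 0.63, SE 0.924, adjusted p = 0.757), and Pdk4 rose 3.23-fold in the 5-array fit (1.69, SE 0.341, adjusted p = 0.00614). Angptl4, a secreted inhibitor of lipoprotein lipase, was 9.12, 9.24 and 10.14 on the controls and 9.04, 10.43 and 10.29 on the transgenic arrays (difference 0.42, SE 0.446, adjusted p = 0.65; 0.86 and adjusted p = 0.0417 in the 5-array fit). Control replicate 3 was the highest control for both genes.

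Vnn1, a pantetheinase of the cell surface and a known PPAR-alpha target, was 11.77, 11.91 and 11.83 on the controls and 8.20, 12.37 and 12.34 on the transgenic arrays. Its direction therefore turned with the array: the difference was -0.87 with 6 arrays (SE 1.12, adjusted p = 0.72) and 0.51 in the 5-array fit (SE 0.0852, adjusted p = 0.00232). Creb3l3, a membrane-bound transcription factor of liver and intestine that acts with PPAR-alpha in fasting, was 10.78, 10.88 and 10.88 on the controls and 9.35, 11.11 and 11.09 on the transgenic arrays (difference -0.34, SE 0.477, adjusted p = 0.75; 0.25 and adjusted p = 0.0568 in the 5-array fit). Fgf21, the fasting hormone best known from liver, was dim on every array, at 5.49 to 5.59 on the controls and 5.22 to 5.65 on the transgenic arrays (difference -0.16, SE 0.136, adjusted p = 0.56; -0.09 and adjusted p = 0.72 in the 5-array fit). Pdk4, Angptl4, Creb3l3 and Vnn1 were the 4 members for which transgenic replicate 1 and the mean of the other transgenic arrays lay on opposite sides of the control mean. The same array had the low enterocyte signal given above, and what part that has in these values was not tested.

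**Figure D3:**
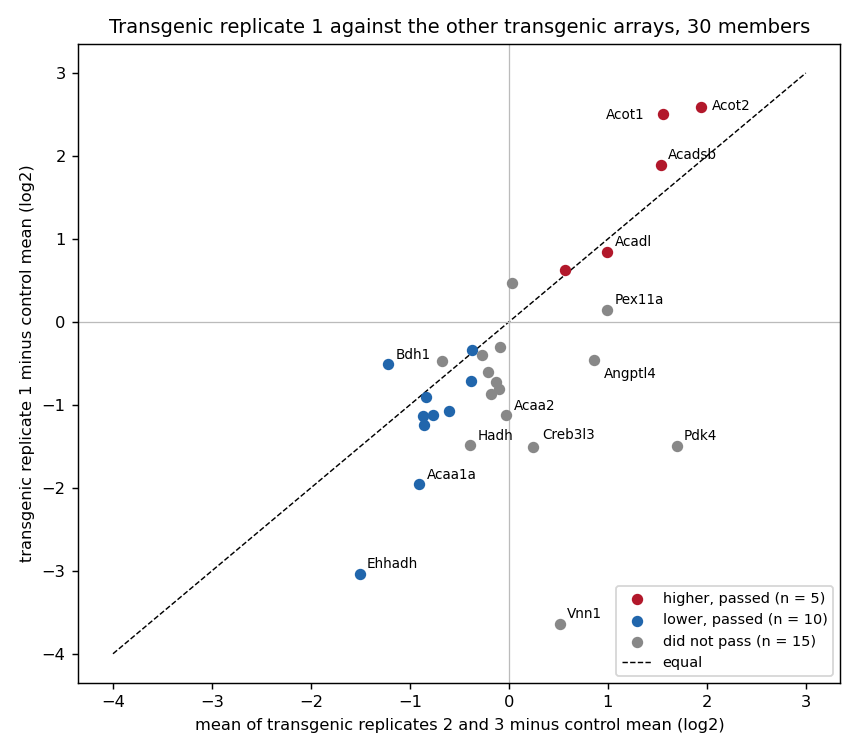
Each of the 30 members by its mean on transgenic replicates 2 and 3 (horizontal axis) and its value on transgenic replicate 1 (vertical axis), both minus the control mean on the log2 scale; red and blue mark the 5 and 10 members that passed as higher and lower, grey the 15 that did not, and the dashed line equal values. Members that passed lie in the upper right and lower left, and Vnn1, Pdk4, Creb3l3 and Angptl4 lie in the lower right, high on replicates 2 and 3 and low on replicate 1.

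Genes next to the members in the pathway were read from 9 lists holding 145 genes, of which 131 were measured. Of these 4 rose and 23 fell (3.05% and 17.6%, against 6.04% and 5.84% of all genes), with a median difference of -0.35. In the 5-array fit 12 were higher and 60 lower, where 14.0% and 14.5% of all genes were. These shares of all genes are also those to set beside the counts of each list below. Some genes, such as Abcd3, stand on more than 1 list. Like the members, these lists were chosen with earlier results of these data known.

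**Figure D4:**
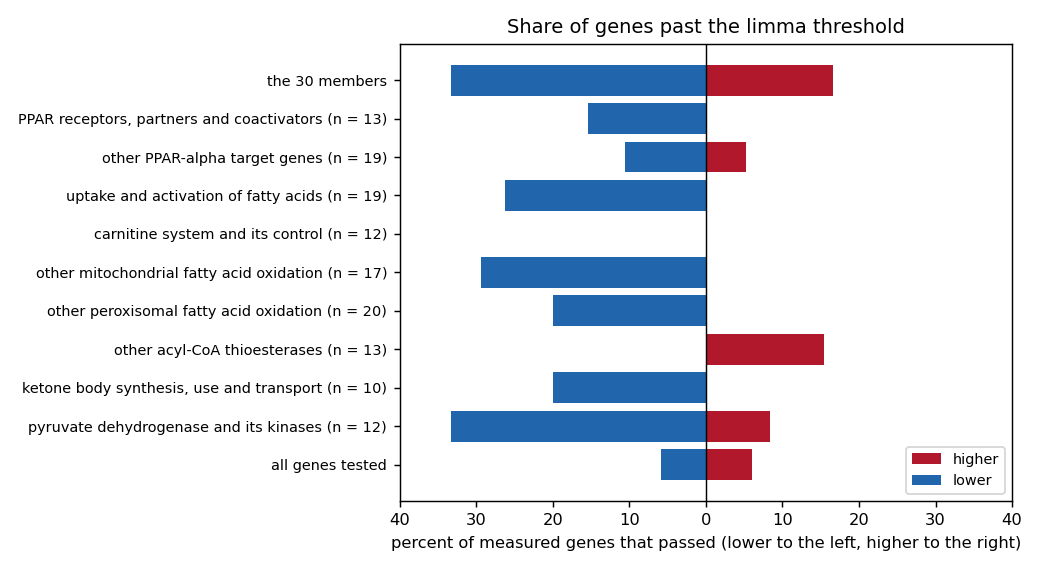
Percent of measured genes that passed as lower (blue, to the left) or higher (red, to the right) with 6 arrays, for the 30 members, the 9 neighbouring lists and all 19938 genes tested. The bars of the members reach 33.3% lower and 16.7% higher, and those of all genes 5.84% and 6.04%.

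Of 17 measured genes on the list for other mitochondrial oxidation 5 passed, all lower, and in the 5-array fit 13, all lower. The neighbouring lists were drawn from general knowledge, with earlier results of these data known. Where each product acts in the cell, and whether it serves fatty acid oxidation alone, was not checked. Pccb, a subunit of propionyl-CoA carboxylase, fell by 1.02 (adjusted p = 0.00291), Acad10 by 0.89 (0.00853), Gcdh, the glutaryl-CoA dehydrogenase, by 1.19 (0.0145) and Echs1, the short-chain enoyl-CoA hydratase, by 0.59 (0.0202). Pccb passed whichever array was left out. The call of Acad10 was lost without control replicate 1 (adjusted p = 0.0523), that of Gcdh when a control or transgenic replicate 2 was left out (up to 0.0699) and that of Echs1 unless the array left out was transgenic replicate 1 (up to 0.0961).

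Of 20 measured genes on the list for other peroxisomal oxidation 4 passed, all lower like Ehhadh and Acaa1a, and in the 5-array fit 11 fell and 1 rose (Acox2, 1.24, named after its value was seen). Hsd17b4, the second bifunctional enzyme of peroxisomes, was 10.71, 10.50 and 10.75 on the controls and 8.98, 9.04 and 9.12 on the transgenic arrays, with replicate 1 close to the others (difference -1.61, SE 0.0994, adjusted p = 0.00137). Abcd3, a transporter of acyl-CoA into peroxisomes, was 11.22, 11.01 and 11.02 on the controls and 9.92, 9.86 and 9.85 on the transgenic arrays (difference -1.20, SE 0.0899, adjusted p = 0.0017). The oxidase Acox3 fell by 1.35 (adjusted p = 0.0378) and the transporter-like Abcd4 by 0.85 (0.0101). Hsd17b4 and Abcd3 passed whichever array was left out. Acox3 lost its call unless the array left out was transgenic replicate 1 (up to 0.149), and Abcd4 on leaving out control replicate 1 or 2 (up to 0.0615).

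Among genes of fatty acid uptake and activation 5 of 19 passed, all lower. Acss1, the mitochondrial acetyl-CoA synthetase, was 10.29, 10.62 and 9.22 on the controls and 7.06, 8.18 and 8.09 on the transgenic arrays (difference -2.27, SE 0.451, adjusted p = 0.0276). The medium-chain synthetases Acsm5 and Acsm3 fell by 1.85 (adjusted p = 0.00588) and 1.12 (0.0296), and Acsf3 fell by 0.72 (0.0202), the signal of Acsm3 lying in the dimmest 40% of genes. Acsm5 passed whichever array was left out, Acss1 lost its call unless the array left out was control replicate 3 or transgenic replicate 1 (up to 0.117), Acsm3 unless the array left out was transgenic replicate 1 (up to 0.123) and Acsf3 when a control was left out (up to 0.0979). In the 5-array fit 10 fell and 1 rose, the fatty acid transporter Cd36 (0.96, named after its value was seen). In the carnitine system 0 of 12 passed in the limma fit to 6 arrays, with 1 at an unadjusted p under 0.05. Crat, the carnitine acetyltransferase, was 10.72 to 10.99 on the controls and 7.72, 9.99 and 10.11 on the transgenic arrays, and it was the only gene of that list to pass in the 5-array fit (-0.81, adjusted p = 5.92e-04). Malonyl-CoA decarboxylase (Mlycd), which relieves the block of Cpt1a, the brain form Cpt1c and the carnitine transporter gene Slc22a21 differed by -0.35, -0.16 and -0.59 and did not pass (adjusted p = 0.309, 0.354 and 0.401). The mitochondrial carnitine carrier Slc25a20 was 10.07 to 10.17 on the controls and 10.01, 10.36 and 10.30 on the transgenic arrays (difference 0.11, adjusted p = 0.633).

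The receptor side was measured on 13 genes, of which 2 passed, both lower, where 11.9% of all genes passed, 5.84% as lower. In the 5-array fit 6 were lower and 1 higher (Sirt1, 0.48, named after its value was seen), where 14.5% and 14.0% of all genes were. Ppara itself was 8.96, 9.06 and 9.40 on the controls and 8.51, 9.47 and 9.38 on the transgenic arrays, so the groups overlapped (difference -0.02, SE 0.279, adjusted p = 0.979; 0.29 and adjusted p = 0.163 in the 5-array fit). Its partner Rxra was 9.23, 9.21 and 9.21 on the controls and 7.06, 8.03 and 8.06 on the transgenic arrays. It fell 2.82-fold (difference -1.50, SE 0.272, adjusted p = 0.0211; -1.17 in the 5-array fit). Rxrb fell by 0.40 (adjusted p = 0.0434). Esrra, a nuclear receptor that drives oxidative genes, and Sirt3, the mitochondrial deacetylase, were lower on every transgenic array and did not pass (-1.10 and -0.97, adjusted p = 0.066 and 0.0564), but did in the 5-array fit (-0.77 and -0.70). Rxra lost its call when a control was left out (up to 0.0937) and Rxrb unless the array left out was transgenic replicate 1 (up to 0.184).

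The other genes known as PPAR-alpha targets that passed did not share a direction. Of 19 measured 1 rose, the lipid droplet gene Plin2 (0.68, adjusted p = 0.0187), and 2 fell, Abcd3 and the fatty aldehyde dehydrogenase Aldh3a2 (-0.62, adjusted p = 0.0294), with a median of -0.03 against -0.04 over all genes. Of all genes 6.04% rose and 5.84% fell. The phosphatidate phosphatase gene Lpin1 did not pass (0.41, adjusted p = 0.155). Plin2 lost its call unless the array left out was transgenic replicate 1 (up to 0.0946), and Aldh3a2 when a control or transgenic replicate 3 was left out (up to 0.132). In the 5-array fit 4 were higher and 6 lower, where 14.0% and 14.5% of all genes were. The fatty acid hydroxylase genes Cyp4a31 and Cyp4a10 were named after their values were seen. Cyp4a31 was 3.66 to 3.74 on the controls and 3.53, 5.38 and 5.15 on the transgenic arrays, and Cyp4a10 was 5.15 to 5.50 on the controls and 4.87, 6.37 and 6.16 on the transgenic arrays. Both had low signals, and both lay below the controls on replicate 1 and above them on replicates 2 and 3, the order seen for Vnn1, Creb3l3, Angptl4 and Pdk4 against the control mean.

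Ketone body genes apart from Bdh1 were few. Of 10 measured 2 passed, both lower, and in the 5-array fit 4, all lower. Acat1, the mitochondrial acetoacetyl-CoA thiolase, was 10.12, 10.17 and 10.31 on the controls and 9.59, 9.12 and 9.08 on the transgenic arrays (difference -0.94, SE 0.155, adjusted p = 0.0159), with replicate 1 nearest to the controls as for Bdh1. The lactate and ketone transporter gene Slc16a3 fell by 1.30 (adjusted p = 0.0222), and its relative Slc16a1 did not pass (0.53, adjusted p = 0.235), nor did the ketone-using transferase gene Oxct2a (-0.39, adjusted p = 0.589), which fell in the 5-array fit (-0.80, adjusted p = 0.00203). Acat1 lost its call when a control or transgenic replicate 2 was left out (up to 0.0746), and Slc16a3 on leaving out control replicate 1, control replicate 2 or transgenic replicate 2 (up to 0.103).

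Genes around pyruvate dehydrogenase, the step that Pdk4 controls, moved in both directions. Of 12 measured 1 rose and 4 fell, and in the 5-array fit 1 was higher and 7 lower. Pdk1, a related kinase, was 7.61, 7.43 and 7.74 on the controls and 6.33, 6.30 and 6.08 on the transgenic arrays (difference -1.36, SE 0.119, adjusted p = 0.00262). Pdk3 was 9.34, 9.12 and 9.38 on the controls and 8.51, 8.43 and 8.20 on the transgenic arrays (difference -0.90, SE 0.12, adjusted p = 0.00825). Both kinases were lower on all 3 transgenic arrays, replicate 1 included, where Pdk4 was lower on replicate 1 and higher on the others. The pyruvate carrier subunit Mpc1 fell by 0.68 (adjusted p = 0.0236), and Pdhb, a subunit of the dehydrogenase, rose by 0.62 (0.0314). Pdk1 passed whichever array was left out. Pdk3 lost its call without control replicate 1 (adjusted p = 0.0535), Mpc1 when a control or transgenic replicate 3 was left out (up to 0.111) and Pdhb when a control or transgenic replicate 2 was left out (up to 0.131).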

How the data were processed

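Signals of 6 arrays were analysed, 3 per group, grouped by the sample titles, and the labels name no batch. The deposited values are log2 signals, and the submitters' processing notes name RMA and Partek 6.5, without settings. RMA corrects background and normalizes quantiles, so that a change in the RNA content of a cell is lost and low signals are compressed. Of 35399 rows, 21789 had 1 gene symbol in the platform annotation. For each gene the row with the highest mean was kept, which gave 19938 genes with no filter on dim ones.

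All genes entered 1 model in limma 3.58.1 (lmFit, eBayes; R 4.3.3), which was tested on simulated data. The precision is limited by 3 arrays per group, called animals in the series text. Members and lists were chosen with earlier results of these data known. Text names all measured members, and of each neighbouring list the 4 genes with the smallest p-values, plus Ppara and Slc25a20. Outside this rule, Acot3 was named as a neighbour, and Acox2, Cd36, Cyp4a10, Cyp4a31 and Sirt1 after their values were seen. Sequences of promoters and gene order come from RefSeq tables of GRCm38.p6, in which all 30 members kept their symbols. No protein sequences were used here. The numbers in the titles are not stated to pair the arrays, and the correlations in the closing section cannot decide it. As alternatives, arrays were quantile-normalized again or set to equal medians, the dimmest 40% of genes were removed, and fits were made with blocks on 2 sets of numbers, trend and robust settings, array weights, mean or all rows of a gene, with arrays left out and with an adjusted p under 0.1.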

Additional observations from a re-analysis of the deposited data

How the results depend on the processing

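With 1 array left out in turn, 3 to 9 members were called higher and 3 to 12 lower, against 5 and 10 with all arrays, and the count of all genes past the threshold was 683 to 5700 against 2368. Without transgenic replicate 1 the counts were 9, 12 and 5700, and without any other array 3 to 5 members were higher and 3 to 5 lower. Leaving out transgenic and control replicate 1 together gave 8 higher members and 4573 genes. Array weights, lowest for transgenic replicate 1 (0.12), gave 5770 genes. For the title numbers, correlations of same-numbered deviations from the group means were -0.07, -0.168 and -0.122. With 3 arrays per group and transgenic replicate 1 far from the others, these values cannot decide whether the arrays were paired. A replicate block on the title numbers left 4 higher and 4 lower members and 733 genes. A replicate block on the numbers in the sample descriptions, which only 2 pairs share, was fitted without transgenic and control replicate 1. It gave 9 higher and 9 lower members and 4019 genes. With the description block, array weights, transgenic replicate 1 left out, or that and control replicate 1 left out, in that order, the direction turned for Creb3l3 (0.22, 0.20, 0.25 and 0.22), Vnn1 (0.48, 0.36, 0.51 and 0.48) and Ppara (0.20, 0.32, 0.29 and 0.20). Each of these settings dropped transgenic replicate 1 or gave it the lowest weight, so they are not separate alternatives. Ppara, near 0 with all arrays, also turned with equal array medians (0.019) and without control replicate 3 (0.11). Over single arrays left out, the differences ran from -0.63 to 0.25 for Creb3l3, -1.57 to 0.51 for Vnn1 and -0.19 to 0.29 for Ppara. The cause was not tested. Quantile normalization, equal array medians, other row rules, removal of the dimmest 40% of genes and trend and robust settings changed the call of at most 2 members each. The first 2 could change little, since RMA had normalized quantiles and the array medians already ran from 6.27 to 6.34. Averaging rows changed the values of Hadhb alone among the members. The comparison of member proteins was not run. For genes in the dimmest 40%, such as Acaa1b, Fgf21 and Acot5, fold changes may be compressed by background signal, which was not measured.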
